A study of Mus musculus with 11 samples.

Results

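The insulin-like growth factor binding proteins (IGFBPs) were followed in the host compartment of A375 melanoma xenografts treated with a BRAF inhibitor, an antibody to VEGF, or both. The family was taken as Igfbp2, Igfbp3, Igfbp4, Igfbp5, Igfbp6 and Igfbp7, by gene symbol, and a probe was used where its detection p was under 0.05 on at least 1 of the 11 arrays. Of 15 probes with such a symbol, 10 passed, and each of the 6 genes kept at least 1 probe among the 10933 genes tested. Igfbp3 and Igfbp4 kept 2 of 2 probes each, Igfbp5 kept 3 of 3, Igfbp6 kept 1 of 1, Igfbp2 kept 1 of 2 and Igfbp7 kept 1 of 5. Igfbp2 passed through PLX4720 arrays alone, where 2 of 3 detected it, and the other members were detected in all 4 groups.

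The tumors grew from A375, a BRAF-mutant line of human melanoma, in CD1 female athymic mice that entered at 6 weeks of age, so each one mixes human cancer cells with vessels and stroma of the mouse. The 4 groups were PLX4720 (an inhibitor of mutant BRAF, 60 mg/kg by gavage each day in 1% methylcellulose), bevacizumab (an antibody to VEGF, 10 mg/kg into the peritoneum 3 times a week in 0.9% saline), COMBO (both drugs at these doses) and vehicle. The labels give vehicle mice 1% methylcellulose with no saline listed, and bevacizumab mice saline with no methylcellulose listed. As labelled, bevacizumab and vehicle therefore also differ in carrier, while the paper speaks of equivalent volumes of vehicles. PLX4720, bevacizumab and vehicle had 3 arrays each and COMBO had 2, taken after 12 days of dosing that began, per the labels, at a tumor volume of 150 to 200 mm3. Athymic mice lack T cells, all tumors derive from 1 cell line, and RNA was read on a mouse bead chip. Human RNA that binds mouse probes could not be told apart from mouse RNA, and in a bulk tumor fewer cells of a type and less RNA per cell cannot be told apart either.

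IGFBPs are secreted proteins that bind the growth factors IGF1 and IGF2, prolong their life in circulation and tissue, and withhold them from the receptor IGF1R or hand them over to it. Proteases such as PAPPA cut the binding proteins and free the ligand, and several members also bind matrix or cell surfaces without IGF. In tumors they come from fibroblasts, vessel walls and cancer cells alike, and Igfbp7, which binds IGFs only weakly, is known as a protein of tumor vessels.

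Igfbp3 is the member whose signal passed the test, and Igfbp6 had COMBO values below every array of either single drug, so their promoters are shown with the letters of 5 motifs in capitals. The windows are the 250 bases before the RefSeq start on GRCm38.p6, chr11:7213924-7214173 on the minus strand for Igfbp3 and chr15:102143936-102144185 on the plus strand for Igfbp6.
Igfbp3: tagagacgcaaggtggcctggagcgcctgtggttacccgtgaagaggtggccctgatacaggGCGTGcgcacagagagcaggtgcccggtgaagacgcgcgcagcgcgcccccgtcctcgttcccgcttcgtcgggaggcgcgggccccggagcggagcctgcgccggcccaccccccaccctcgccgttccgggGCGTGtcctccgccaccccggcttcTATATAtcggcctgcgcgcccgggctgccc
Igfbp6: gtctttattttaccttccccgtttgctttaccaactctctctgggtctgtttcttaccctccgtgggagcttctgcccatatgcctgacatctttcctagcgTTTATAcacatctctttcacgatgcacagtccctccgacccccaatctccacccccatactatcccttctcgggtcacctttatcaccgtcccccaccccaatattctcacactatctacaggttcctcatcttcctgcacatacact
The motifs searched on both strands were the TATA box (TATAAA or TATATA), the GC box (GGGCGG), the E-box (CACGTG), the hypoxia response core (ACGTG or GCGTG, the first of which lies inside the E-box) and the AP-1 site (TGACTCA or TGAGTCA). The Igfbp3 window held a TATA-type run 30 bases before the start and 2 hypoxia response cores, 188 and 55 bases before it. The Igfbp6 window held a single match, a TATA-type run on the opposite strand 148 bases before the start. Igfbp4, on chromosome 11 like Igfbp3, also held a TATA-type run, 28 bases before its start. Igfbp7 held 4 GC boxes and 2 hypoxia response cores and no TATA-type run, and Igfbp5 held none of the 5 motifs. Igfbp2 has 2 RefSeq starts, one with 3 GC boxes, 1 E-box and 4 matches of the hypoxia response core before it and the other with 1 AP-1 site. The Igfbp2 core matches at 142 and 141 bases are its E-box read on either strand. Of 32851 RefSeq promoters of this length, 15.6% held a TATA-type run, 32.7% a GC box, 6.02% an E-box, 38.6% a hypoxia response core and 4.46% an AP-1 site. These are matches of letters, not sites shown to be bound.

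The PLX4720 arrays stood apart from the rest in breadth, with 13049 to 15130 detected probes against 10115 to 12315 on the other 8 arrays. Skeletal muscle genes were highest in PLX4720 replicate 1 (mean of 17 markers 6.88 above the vehicle mean on the log2 scale), COMBO replicate 1 (4.36 above) and bevacizumab replicate 2 (3.76 above). With PLX4720, 13% of all genes passed an adjusted p of 0.05 against vehicle, and the median change over all genes was 0.14 in the log2 signal. That median was 0.01 when arrays were scaled by the median of detected probes, 0.29 by housekeeping genes and 0.76 by the median of all probes, and of the genes called 602 were higher and 821 lower in the main fit, 2352 and 563 by housekeeping genes, and 4791 and 209 by all probes. The changes given for single genes with PLX4720 are to be read against that shift. Signals below are log2 values after background correction and quantile normalization, tests are limma's moderated tests over all 11 arrays, and p-values were adjusted over the 10933 genes (Benjamini-Hochberg).

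Igfbp3, the main IGF carrier in blood, was the member with the strongest difference between groups, and it was lower in all 8 treated tumors than in any vehicle tumor. Its raw signal was 2231.6, 1586.9 and 1501.8 in PLX4720 tumors, 1252, 1417.3 and 1240.2 in bevacizumab tumors and 739.6 and 707.8 in COMBO tumors, against 3331.1, 3693.7 and 2777 in vehicle tumors. After normalization it averaged 10.02 ± 0.32 in PLX4720, 10.74 ± 0.12 in bevacizumab and 9.54 ± 0.18 in COMBO tumors, and 11.82 ± 0.06 in vehicle tumors (SD, n = 3, 3, 2 and 3). The vehicle arrays lay within 11.76 to 11.88, so their spread was small beside each of these gaps.

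Igfbp3 fell by 1.80 on the log2 scale with PLX4720 (SE 0.22, 95% interval -2.29 to -1.31, adjusted p = 0.00126), a 3.49-fold lower signal. It fell by 2.28 with COMBO (SE 0.25, interval -2.83 to -1.74, adjusted p = 0.00375), a 4.87-fold lower signal. The COMBO call was kept without COMBO replicate 2 (-2.16, adjusted p = 0.0436) and lost without COMBO replicate 1 (-2.41, adjusted p = 0.0582) and without the 3 arrays of highest muscle signal (-2.41, adjusted p = 0.143), where the change was larger and 0 of 10933 genes were called in limma. With bevacizumab the difference was -1.08 (SE 0.22, interval -1.57 to -0.59), which met the threshold of the study's methods, an absolute log2 change of 1 with an unadjusted p under 0.01, and missed the adjusted one (adjusted p = 0.397 in limma). Igfbp3 was the 1 of 6 members called with PLX4720, where 13% of all genes were, and the 1 of 6 called with COMBO, where 0.366% were. None of 6 was called with bevacizumab, where 0.00915% of genes were, and in limma 2 members had an unadjusted p under 0.05 there, as 7.01% of genes did. At the methods' threshold 2 of 6 were called with PLX4720 (Igfbp3 and Igfbp6; 10.9% of all genes), 1 with bevacizumab (Igfbp3; 0.75%) and 1 with COMBO (Igfbp3; 4.01%). Lower values without overlap with vehicle, as Igfbp3 had in all 3 comparisons, were seen in 15.8% of genes with PLX4720, 7.08% with bevacizumab and 19.2% with COMBO. The F test over the 4 groups gave Igfbp3 an adjusted p of 0.00298, and again 1 of 6 members passed the F test at 0.1, beside 10.6% of all genes.

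**Figure D1:**
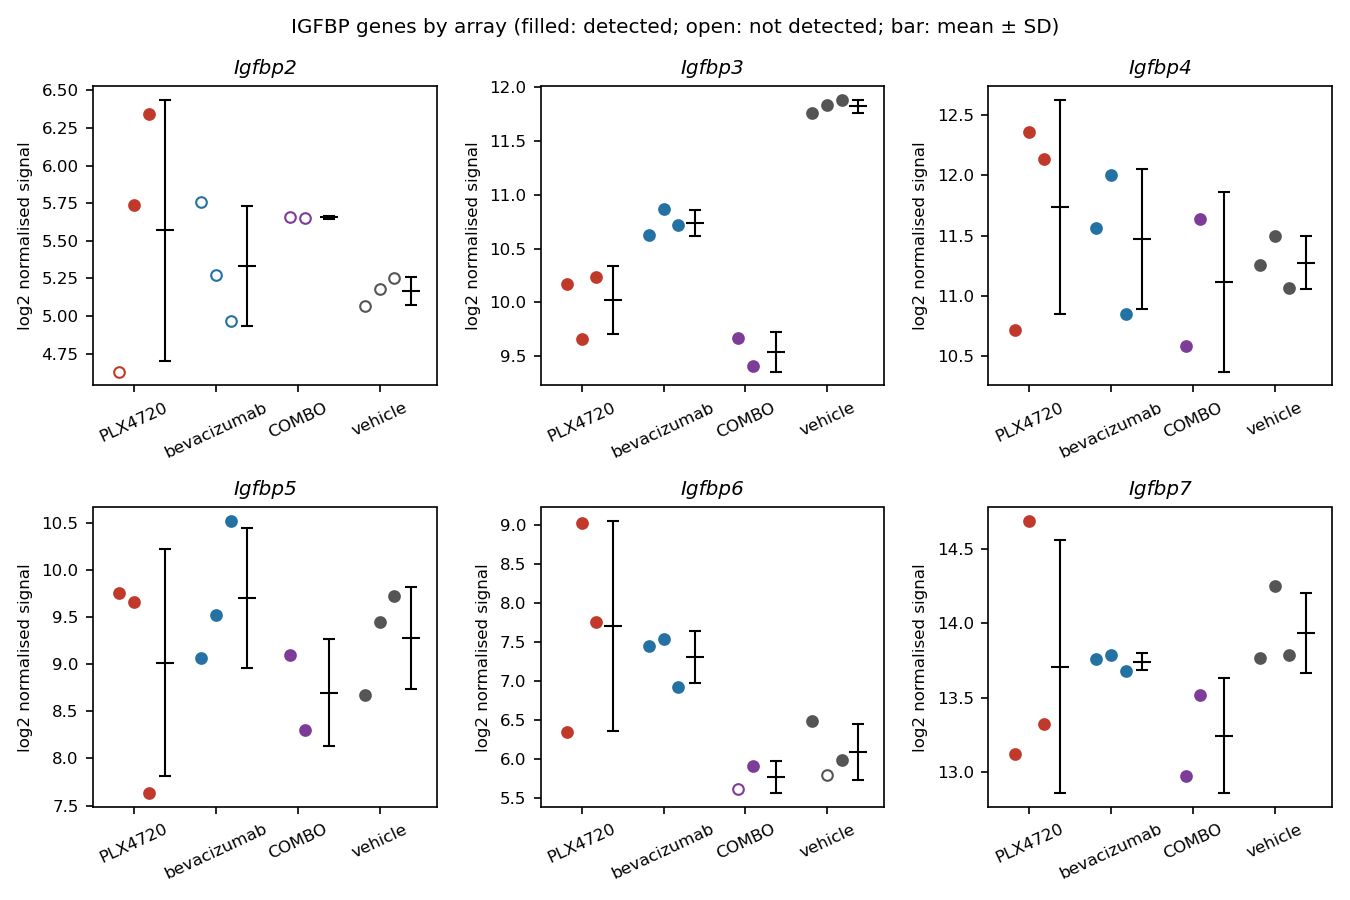
Each panel shows 1 IGFBP gene, with the log2 normalised signal of every array on the y axis and the groups PLX4720, bevacizumab, COMBO and vehicle on the x axis; filled points were detected, open points were not, and bars give the mean ± SD. Igfbp3 separates vehicle (11.76 to 11.88) from every treated tumor, while Igfbp4, Igfbp5 and Igfbp7 overlap between PLX4720 and vehicle.

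The order of the treated groups held less firmly. COMBO tumors had the lowest Igfbp3, but against PLX4720 the difference was -0.48 (interval -1.03 to 0.06, adjusted p = 0.42 in limma) and the groups overlapped, with COMBO replicate 1 at 9.67 and PLX4720 replicate 2 at 9.66. Against bevacizumab the COMBO tumors were lower by -1.20 (SE 0.25, adjusted p = 0.13 in limma), past the methods' threshold, which 2.45% of genes met, and not past the adjusted one. PLX4720 tumors lay below bevacizumab tumors after normalization (9.66 to 10.24 against 10.63 to 10.87), whereas in raw signal they lay above them (1501.8 to 2231.6 against 1240.2 to 1417.3). With each array scaled by the median of all its probes, the fall against vehicle was -0.95 with PLX4720 and -1.18 with bevacizumab, the reverse order of the main fit. The drop of Igfbp3 below vehicle was kept in each of these scalings, and which of the single drugs lowered it more was not.

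The second Igfbp3 probe also read below vehicle in every treated tumor, but ranked the treatments differently. Its raw signal was 171.3, 1051.1 and 388 in PLX4720 tumors, 770.5, 1071.4 and 754 in bevacizumab tumors and 647.9 and 840.9 in COMBO tumors, against 2367.3, 4261.4 and 2352.9 in vehicle tumors. PLX4720 replicate 1 had the lowest value, close to background (detection p 0.02244), while the brighter probe read 2231.6 on the same array. This probe fell by 4.10 with PLX4720 (SE 0.61, adjusted p = 0.00314 over 16217 probes, of which 11.6% passed), against -2.06 with COMBO (SE 0.68, adjusted p = 0.225) and -1.53 with bevacizumab (SE 0.61, adjusted p = 0.677). COMBO read 2.04 above PLX4720 on it (interval 0.57 to 3.52, adjusted p = 0.206), the opposite sign to the brighter probe. Over the 11 arrays the 2 probes correlated at r = 0.66, the lowest of the 5 probe pairs within a member, the others spanning 0.83 to 0.98. Which transcripts each probe reads was not examined.

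**Figure D2:**
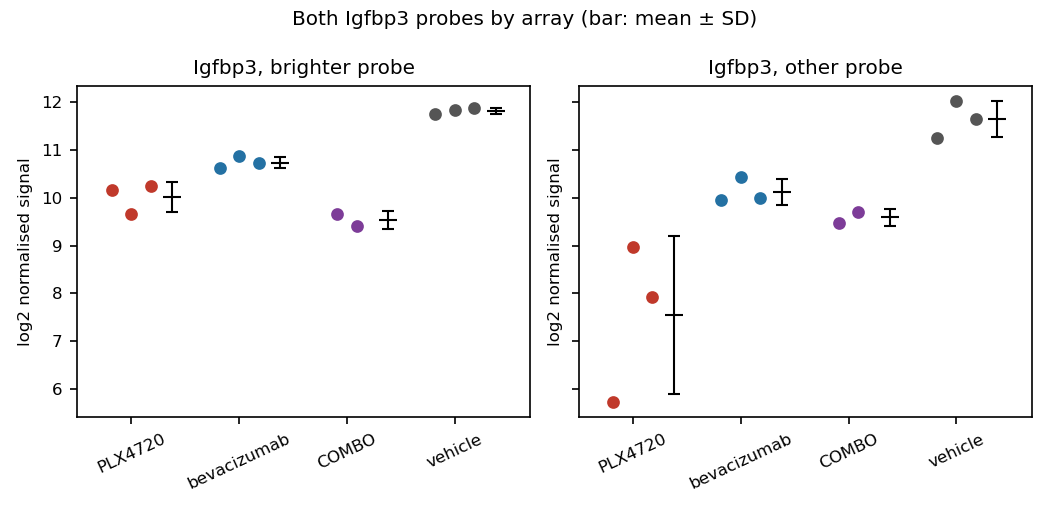
Log2 normalised signal of the 2 Igfbp3 probes on the y axis, by array in the groups PLX4720, bevacizumab, COMBO and vehicle, with bars for the mean ± SD. Both probes put every treated tumor below vehicle, and they part on PLX4720, where the second probe averages 7.55 and the brighter one 10.02.

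The 3 genes whose signal most resembled that of the brighter Igfbp3 probe over the 11 arrays are known from blood vessels. Of 10933 genes, the highest Pearson correlation was with Emcn (endomucin, a sialomucin of capillary and venous endothelium; r = 0.98, Spearman's coefficient 0.94), then Pecam1 (CD31, a junction protein of endothelial cells; r = 0.95, Spearman's coefficient 0.95) and Cdh13 (T-cadherin, found on vessel cells; r = 0.94, Spearman's coefficient 0.91). These values describe the likeness only, since the genes were picked for it and the arrays share their group. With group means removed, r was 0.82 for Emcn, 0.87 for Pecam1 and 0.33 for Cdh13. Emcn changed by -1.37 with PLX4720 (adjusted p = 0.00567), -1.05 with bevacizumab (adjusted p = 0.397) and -2.04 with COMBO (adjusted p = 0.00721) in limma. The brighter Igfbp3 probe changed by -1.80, -1.08 and -2.28, and the second by -4.1, -1.53 and -2.06.

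The endothelial marker list held 12 genes, all tested, with Emcn and Pecam1 among them. Its mean log2 signal per array ranged from 7.68 to 8.36 in PLX4720, 8.26 to 8.62 in bevacizumab and 7.17 to 7.61 in COMBO tumors, against 9.07 to 9.16 in vehicle tumors. In limma 6 of 12 endothelial genes fell with PLX4720, 0 with bevacizumab and 3 with COMBO, beside 7.51% of all genes that fell with PLX4720, 0 genes with bevacizumab and 0.247% with COMBO. A lower mean was seen in 11, 12 and 12 of 12, beside 42%, 50.2% and 49.2% of all genes. The median change over all genes was 0.14, 0 and 0.01 in these comparisons. The part of vessel content in the Igfbp3 signal was not tested.

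**Figure D3:**
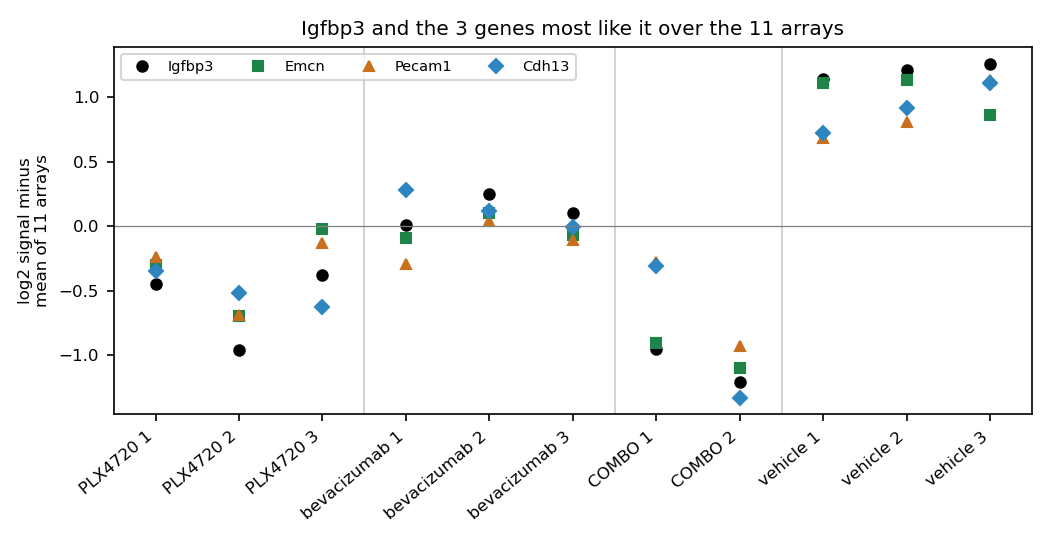
Log2 signal of Igfbp3 (brighter probe), Emcn, Pecam1 and Cdh13 on each array minus that gene's mean over the 11 arrays (y axis). Arrays are in the order PLX4720, bevacizumab, COMBO and vehicle (x axis, replicate numbers beside the group). All 4 genes stand highest in vehicle, where Igfbp3 is 1.14 to 1.26 above its mean, and Igfbp3 reaches its lowest value, -1.21, in COMBO replicate 2.

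Igfbp6, which prefers IGF2 over IGF1, had its highest means after the single drugs, an order that Igfbp4 shared. Its raw signal was 233.4, 1075.5 and 351.8 in PLX4720 tumors, 190.4, 219.9 and 173.7 in bevacizumab tumors and 140.8 and 149.6 in COMBO tumors, against 169.2, 168.9 and 143.3 in vehicle tumors. The probe was detected on all PLX4720 and bevacizumab arrays, on 1 of 2 COMBO arrays and on 2 of 3 vehicle arrays. Its log2 signal averaged 7.70 ± 1.34 in PLX4720, 7.30 ± 0.33 in bevacizumab and 5.76 ± 0.20 in COMBO tumors, and 6.09 ± 0.36 in vehicle tumors (SD, n = 3, 3, 2 and 3).

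Against vehicle, Igfbp6 differed by 1.61 with PLX4720 (SE 0.51, interval 0.49 to 2.74, adjusted p = 0.0591 in limma), by 1.21 with bevacizumab (SE 0.51, interval 0.09 to 2.33, adjusted p = 0.686) and by -0.33 with COMBO (SE 0.57, interval -1.58 to 0.93, adjusted p = 0.85). PLX4720 replicate 1 (6.34) lay within the vehicle range of 5.79 to 6.49, and replicate 2 (9.02) stood far above it. Without replicate 1 the PLX4720 difference was 2.29 with an adjusted p of 0.00912 in limma. With each of the 11 arrays left out it ranged from 0.96 to 2.29, and it passed in 1 of these fits. In 7 of 15 other processing settings it passed the threshold, with a range of 0.93 to 2.36. Those 7 include scaling by the median of all probes, a setting added after seeing the data. They also include the fit without the 3 arrays of highest muscle signal, which again lacks replicate 1. COMBO tumors lay below PLX4720 tumors by -1.94 (SE 0.57, adjusted p = 0.173) and below bevacizumab tumors by -1.54 (SE 0.57, adjusted p = 0.397) in limma. Neither pair of groups overlapped. Of all genes tested, 17.2% and 13.5% were lower in COMBO without overlap in these comparisons. The difference of Igfbp6 from PLX4720 met the methods' threshold, which 3.78% of genes met.

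The non-additive effect of COMBO, which sets the change that bevacizumab brought on top of PLX4720 against the change it brought alone, was -3.15 for Igfbp6 (SE 0.77, interval -4.83 to -1.47, adjusted p = 0.139 in limma). It met the methods' threshold, as 4.35% of all genes did, and not the adjusted one, which 0.00915% met and 0 of 6 members. For Igfbp3 it was 0.60 (interval -0.13 to 1.33, adjusted p = 0.458), and -0.09 with arrays scaled by the median of all probes. The second Igfbp3 probe gave 3.57 (SE 0.91, adjusted p = 0.153 in limma).

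The fibroblast marker list, like Igfbp6, had its highest arrays after the single drugs. The mean of 12 fibroblast markers was 8.93 to 11.03 in PLX4720, 8.85 to 10.19 in bevacizumab and 8.17 to 8.94 in COMBO tumors, against 8.95 to 9.45 in vehicle tumors, with 0 of 12 called in limma in any of these comparisons. The genes most like Igfbp6 over the 11 arrays were Arhgef25 (r = 0.92), Mmp23 (r = 0.91), a membrane metalloproteinase, and Serf1 (r = 0.91). With group means removed these were 0.91, 0.81 and 0.84. The part of stromal content in the Igfbp6 values was not tested.

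Igfbp4, an inhibitor of IGF action that PAPPA cuts, was bright on every array and did not differ past the test. Its raw signal was 3090.9, 8255.3 and 5582.9 in PLX4720 tumors, 2637.6, 2908.5 and 1354.2 in bevacizumab tumors and 1362.2 and 2875.1 in COMBO tumors, against 2365.9, 2870.4 and 1503.8 in vehicle tumors. On the log2 scale it changed by 0.46 with PLX4720 (interval -0.51 to 1.43, adjusted p = 0.489), 0.19 with bevacizumab (interval -0.78 to 1.16, adjusted p = 0.967) and -0.16 with COMBO (interval -1.25 to 0.92, adjusted p = 0.918) in limma. Replicates differed as much as groups, and PLX4720 replicate 1 (10.72) was below every vehicle array while replicates 2 and 3 (12.36 and 12.13) were above them. In raw signal replicate 1 (3090.9) lay above every vehicle array, so its place depended on the scaling. A second probe gave 0.90, 0.11 and -0.40 in the same comparisons, and was correlated with the first at r = 0.83. With arrays scaled by the median of all probes, the PLX4720 change of Igfbp4 was 1.29 (adjusted p = 0.0293). Genes most like Igfbp4 were Crtap (r = 0.92) and Loxl1 (r = 0.91), which act in collagen modification and elastin crosslinking, and S100a11 (r = 0.85).

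Igfbp5, a matrix-bound member, varied within groups more than between them. Its raw signal was 1744.9, 1589.9 and 331.1 in PLX4720 tumors, 437, 596.8 and 1077.7 in bevacizumab tumors and 528.9 and 384 in COMBO tumors, against 428.9, 731 and 624.1 in vehicle tumors. PLX4720 replicate 3 was the lowest of all arrays and PLX4720 replicate 1 the highest in raw signal. The changes were -0.26 with PLX4720 (interval -1.48 to 0.95, adjusted p = 0.762), 0.42 with bevacizumab (interval -0.79 to 1.63, adjusted p = 0.945) and -0.59 with COMBO (interval -1.94 to 0.77, adjusted p = 0.725) in limma. The other 2 probes gave 0.15 and 0.28 with PLX4720, so the sign there depended on the probe, and -0.90 and -1.02 with COMBO. All 3 probes followed each other closely over the arrays (r = 0.85 to 0.98).

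Igfbp7, the vessel-associated member, was bright on every array. Its raw signal was 14682.9, 35950 and 13099.3 in PLX4720 tumors, 12809.2, 10322.9 and 9274.7 in bevacizumab tumors and 6614.2 and 9748.2 in COMBO tumors, against 14367.6, 18987.2 and 10589.1 in vehicle tumors. After normalization COMBO tumors (12.97 and 13.52) lay below every bevacizumab array (13.68 to 13.79) and every vehicle array (13.77 to 14.25). In raw signal COMBO replicate 2 (9748.2) lay above bevacizumab replicate 3 (9274.7), so the separation from bevacizumab depended on the scaling. Against bevacizumab, 13.5% of all genes were lower in COMBO without overlap. The COMBO change against vehicle was -0.69 (SE 0.41, interval -1.59 to 0.20, adjusted p = 0.486 in limma), and 19.2% of all genes were lower without overlap against vehicle. With PLX4720 it was -0.23 (interval -1.03 to 0.57) and with bevacizumab -0.20 (interval -0.99 to 0.60). The genes most like Igfbp7 were Lpar1, a lysophosphatidic acid receptor (r = 0.93), Ccn1, a matricellular protein (r = 0.93), and Lrrc17 (r = 0.90).

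Igfbp2, a carrier rich in fetal tissue and many tumors, was at the edge of detection. It passed on PLX4720 replicates 2 and 3, with raw signals of 187.3 and 191, and read 92.2 on replicate 1. Bevacizumab tumors gave 108.4 to 125.3 and COMBO tumors 139.9 and 142.1, against 113.9 to 136.7 in vehicle tumors, none of them detected. The PLX4720 change was 0.40 (interval -0.41 to 1.21, adjusted p = 0.471 in limma), with both groups' means below or near the lowest detected signal of their arrays (5.39 to 6.08), so it gives no fold.

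As a family the members did not move as 1 group. Igfbp2 passed the filter through PLX4720 arrays alone, so the counts are given without it. Of the other 5 members, 2 had a higher and 3 a lower mean with PLX4720, 3 and 2 with bevacizumab, and 0 and 5 with COMBO. A lower mean was seen in 42%, 50.2% and 49.2% of all genes. The median change of these 5 members was -0.23, 0.19 and -0.59, beside 0.14, 0 and 0.01 for all genes. The PLX4720 median was 0.09 with Igfbp2 included. Set against PLX4720 and bevacizumab, COMBO gave a lower mean in 5 of 5 members each time, beside 55.4% and 48.5% of all genes. The medians were -0.48 and -1, beside -0.07 and 0.01 for all genes. These counts use 1 probe per gene, and on the second Igfbp3 probe COMBO read 2.04 above PLX4720. In both comparisons 0 of 6 members passed the adjusted test, where 0.00915% and 0.0457% of genes did. In limma 1 member against PLX4720 and 2 against bevacizumab had an unadjusted p under 0.05, as 14% and 9.51% of genes did. These comparisons share their COMBO and vehicle arrays.

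**Figure D4:**
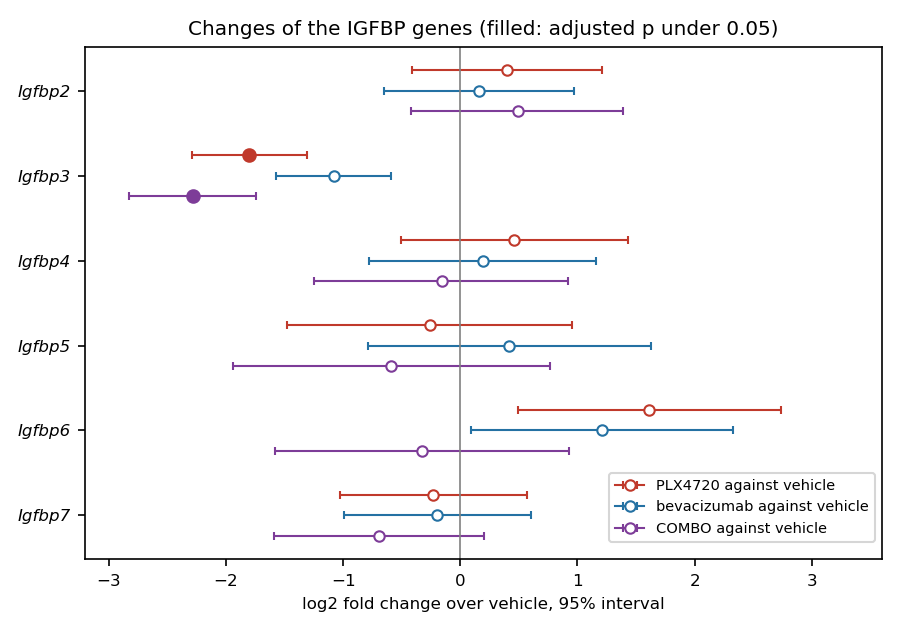
Log2 fold change over vehicle (x axis) with its 95% interval for each IGFBP gene (y axis) with PLX4720, bevacizumab and COMBO; filled points have an adjusted p under 0.05. Only the PLX4720 and COMBO values of Igfbp3 are filled, at -1.80 and -2.28, and the intervals of Igfbp2, Igfbp4, Igfbp5 and Igfbp7 include 0 in all 3 comparisons.

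The other genes of the IGF axis were read from a list of 26 ligands, receptors, adaptors, proteases and inhibitors, of which 17 were tested. Another 6 (Insrr, Irs3, Grb14, Igfbp1, Igfbpl1 and Igf2bp1) had probes and no detection, and 3 (Irs4, Pappa2 and Igf2bp2) had no probe of that name. With PLX4720 2 of 17 rose and 2 fell, beside 5.51% of all genes that rose and 7.51% that fell. With bevacizumab and with COMBO 0 of 17 passed the adjusted test, and in limma 1 and 5 had an unadjusted p under 0.05, beside 7.01% and 14% of all genes.

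Both ligands rose with PLX4720. Igf1, the ligand that stromal cells and liver make, averaged 8.4 ± 0.30 in PLX4720, 7.30 ± 0.26 in bevacizumab and 8.24 ± 0.11 in COMBO tumors, and 7.16 ± 0.18 in vehicle tumors (SD, n = 3, 3, 2 and 3). It rose by 1.24 with PLX4720 (SE 0.24, adjusted p = 0.00962 in limma), a 2.36-fold higher signal, and a second probe gave 1.57 (adjusted p = 0.0305 over probes). With COMBO the difference was 1.08 (SE 0.27, adjusted p = 0.113) and with bevacizumab 0.14 (SE 0.24, adjusted p = 0.966). The COMBO arrays read 8.16 and 8.32, against 7.06 to 7.37 in vehicle tumors. In the lower direction 19.2% of all genes lay apart from vehicle with COMBO, and the share in the higher direction is not given here. Array weights called 203 genes higher and 232 lower with COMBO, against 13 and 27 in the main fit. With these weights the COMBO difference of Igf1 was 1.07 and passed (adjusted p = 0.0261 in limma). That was the 1 pass among 15 other settings, which ranged from 0.7 to 1.47. Without the 3 arrays of highest muscle signal, the PLX4720 change was 1.21 with an adjusted p of 0.0617.

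Igf2, the fetal ligand that Igfbp6 prefers, was detected on all PLX4720 and COMBO arrays, on 1 of 3 bevacizumab arrays and on none of the vehicle arrays. It read 6.75, 6.85 and 7.70 in PLX4720 tumors, 5.77, 6.07 and 5 in bevacizumab tumors and 5.95 and 6.74 in COMBO tumors, against 4.86, 5.27 and 5.04 in vehicle tumors. With vehicle taken at its lowest detected signal, Igf2 was at least 2.25-fold higher with PLX4720 (adjusted p = 0.00618 in limma) and at least 1.33-fold higher with COMBO (adjusted p = 0.173).

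Among receptors, Igf1r, the signalling receptor for both ligands, fell by 1.20 with PLX4720 (SE 0.25, adjusted p = 0.0125 in limma) on its brightest probe, at 5.67 ± 0.26 in PLX4720 and 6.87 ± 0.37 in vehicle tumors (SD, n = 3 each). That probe was detected on all vehicle arrays and on 2 of 3 PLX4720 arrays. It read 5.97, 5.50 and 5.53 in PLX4720 tumors, where the lowest detected signals were 5.44, 5.39 and 5.60, so the fall ended near the detection limit. The other 2 Igf1r probes gave -0.26 and -0.02, and were detected on 1 and 2 of 3 PLX4720 arrays and on 0 and 1 of 3 vehicle arrays. The call of Igf1r was lost with the mean of the probes (-0.50, adjusted p = 0.122), with arrays scaled by the median of all probes (-0.57, adjusted p = 0.134) and without vehicle replicate 2 (-1.05, adjusted p = 0.0648). Igf2r, which clears IGF2, and Insr, the insulin receptor, were at 0.68 (adjusted p = 0.229) and -0.32 (adjusted p = 0.523) with PLX4720 and did not pass in any of the 3 comparisons with vehicle. Scaled by the median of all probes, Igf2r was at 1.35 with PLX4720 and passed (adjusted p = 0.0152).

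Stc1, stanniocalcin 1, whose family blocks the protease PAPPA that cuts Igfbp4, was below vehicle in every treated tumor, as Igfbp3 was. It read 7.46, 7.23 and 7.15 in PLX4720 tumors, 7.10, 7.82 and 7.89 in bevacizumab tumors and 7.92 and 7.04 in COMBO tumors, against 8.84, 8.91 and 9.11 in vehicle tumors. Values below vehicle without overlap were seen in 15.8% of genes with PLX4720, 7.08% with bevacizumab and 19.2% with COMBO. Stc1 fell by 1.67 with PLX4720 (SE 0.29, adjusted p = 0.00625 in limma), and the differences with COMBO (-1.47, SE 0.32, adjusted p = 0.0855) and bevacizumab (-1.35, SE 0.29, adjusted p = 0.397) did not pass. With array weights the COMBO difference was -1.46 and passed (adjusted p = 0.0184 in limma), the 1 pass among 15 other settings. These weights called 232 genes lower with COMBO, against 27 in the main fit. Scaled by the median of all probes, the PLX4720 change of Stc1 was -0.61 (adjusted p = 0.154). Pappa itself differed by -0.83 with PLX4720 (adjusted p = 0.108).

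**Figure D5:**
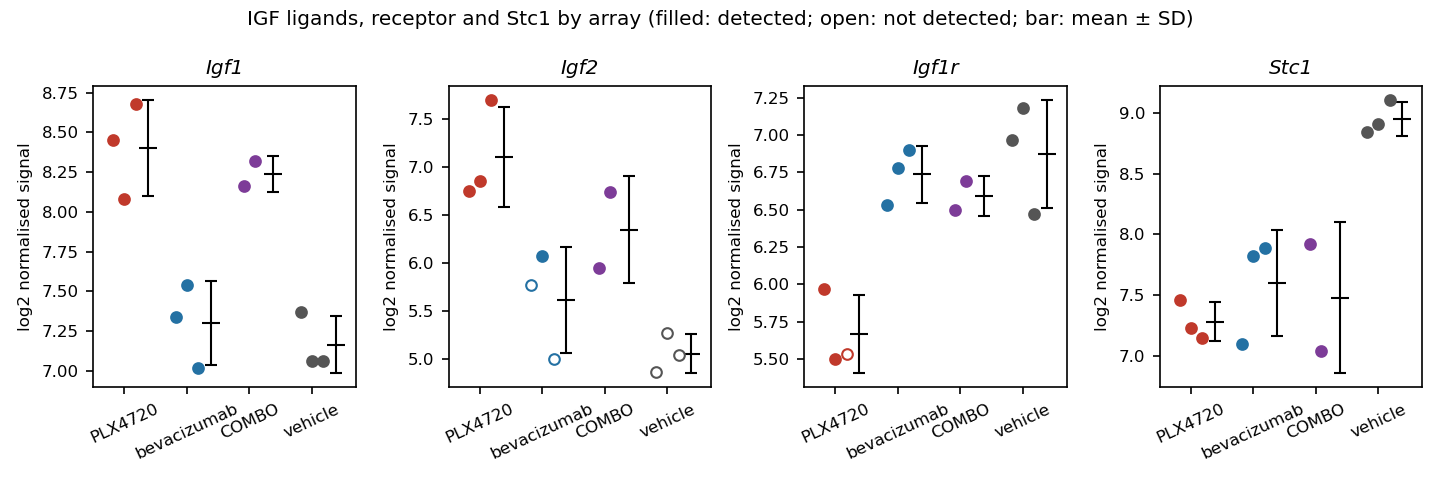
Log2 normalised signal (y axis) of Igf1, Igf2, Igf1r and Stc1 on every array, by group in the order PLX4720, bevacizumab, COMBO and vehicle (x axis); filled points were detected, open points were not, and bars give the mean ± SD. Igf1 and Igf2 average higher and Stc1 averages lower in PLX4720 and COMBO than in vehicle, and Igf1r is low in PLX4720 (5.67 ± 0.26).

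The fits without a COMBO array leave 1 array in that group, which is assumed to vary like the others. The PLX4720 call of Igfbp3 was kept in 15 of 15 other settings (-2.95 to -0.95) and with each of the 11 arrays left out (-1.91 to -1.62). The muscle marker mean itself ranged from 5.17 to 12.58 in PLX4720, 5.20 to 9.46 in bevacizumab and 6.78 to 10.07 in COMBO tumors, against 5.24 to 6.59 in vehicle tumors.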

How the data were processed

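RNA of 11 xenografts was read on MouseWG-6 v2.0 bead chips. Per probe, the authors deposited an intensity before normalization, exported from GenomeStudio 2011.01, with a detection p-value that their software took from negative control beads. They also deposited intensities normalized by cubic spline, used here as an alternative after log2. The genome build behind the probes is not given in the sources used here.

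The intensities were background-corrected and quantile-normalized with neqc (limma 3.58.1, R 4.3.3, offset 16) to log2. Of 45281 probes, 34885 have 1 gene symbol, 18 several and 10378 none, and the probes without a single symbol were left out. Probes had to be detected (p under 0.05) on 1 array or more, and the probe of largest mean stood for its gene, giving 10933 genes from 16217 probes. All 16217 probes were fitted in a separate model for the other probes of a gene. The model had 1 mean per group over all arrays with variances moderated by empirical Bayes (7 residual degrees of freedom, 4.92 from the prior) and was tested on simulated data. Calls are at an adjusted p under 0.05, or 0.1 for the F test over the 4 groups. The number of arrays limits the precision. The labels call the arrays biological replicates.

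Named are all 6 members, the IGF axis genes that passed a test with Igf1, Igf2, Igf1r, Igf2r and Insr, and for each member the 3 genes of highest correlation. Pappa, the endothelial genes' tests and the genes without detection were named after their values were seen. The members and lists were chosen with earlier results of these data known. A fold against a group without detection takes, on each of that group's arrays, the higher of the lowest detected signal and the gene's own. Alternatives covered normalization, filter, probes, samples, moderation, a replicate block and muscle signal.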

Additional observations from a re-analysis of the deposited data

Results flagged for a closer look

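For Igfbp6 the effect of bevacizumab differed between mice with and without PLX4720 by -3.15 on the log2 scale (adjusted p = 0.139 in limma). Igfbp6 read 140.8 and 149.6 in raw signal in COMBO tumors, against 233.4 to 1075.5 in PLX4720 tumors, and 173.7 to 219.9 in bevacizumab tumors, against 143.3 to 169.2 in vehicle tumors. Over the 14 other settings the value ranged from -3.57 to -1.66, with adjusted p from 0.0599 to 0.432.

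For the second Igfbp3 probe the same difference was 3.57 (adjusted p = 0.153 over probes), while the brighter probe gave 0.60. COMBO tumors read 647.9 and 840.9 in raw signal on the second probe, against 171.3 to 1051.1 in PLX4720 tumors, and bevacizumab tumors 754 to 1071.4, against 2352.9 to 4261.4 in vehicle tumors. Without PLX4720 replicate 2 the difference on this probe was 4.29 (adjusted p = 0.0169 over probes in limma). That fit called 113 genes higher and 14 lower for this contrast, against 1 and 0 in the main fit. It keeps PLX4720 replicate 1, which was close to background on this probe (detection p 0.02244). Both flagged results were picked on an unadjusted p under 0.05, and neither passed after adjustment in the main fit.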

How the results depend on the processing

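The count of members called with PLX4720 (1) was 2, with Igfbp6 added as higher, under median scaling, housekeeping scaling, the stricter detection filter, array weights, muscle signal as a covariate, without the 3 arrays of highest muscle signal and at the methods' threshold, and 3 under median scaling over all probes, a setting added after seeing the data (with each array left out, 1 to 2). The COMBO count (1) was 0 without the 3 muscle arrays (with each array left out, 0 to 1). At the methods' threshold 1 member was called with bevacizumab, for COMBO against PLX4720, for COMBO against bevacizumab and for the non-additive effect, where the count had been 0. Array weights called 1 for COMBO against bevacizumab, and scaling over all probes called 2 for COMBO against PLX4720. The F test count (1) was 2 under the spline values, median scaling, the stricter filter, array weights, trended and robust moderation and the muscle covariate, and 3 under scaling over all probes (with each array left out, 1 to 2). Of the members' other probes, 1 was called in any comparison (the second of Igfbp3), and 2 were under scaling over all probes.

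Same-numbered arrays of different groups deviated together with r over 0.1 in 2 of 15 pairs (-0.24 to 0.26). Both pairs set PLX4720 beside COMBO, at 0.26 for replicate 1 and 0.24 for replicate 2. The deviations of the 2 COMBO arrays mirror each other, and no differently numbered pairs stand beside these. This check therefore cannot tell whether the replicate numbers pair the arrays. With the replicate block, Igfbp3 stayed at -1.80 with PLX4720 (adjusted p = 0.00324) and was -2.24 with COMBO (adjusted p = 0.0182); the counts were 1 with PLX4720, 1 with COMBO and 0 in the other comparisons as before. Bead chip as a block was not run, as the chips are not given in the sources used here.

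Of all values tried, 47 changed sign, 0 of them among results past the threshold. With PLX4720 against vehicle, Igfbp2 was -0.15 under median scaling; Igfbp5 was 0.30 under housekeeping scaling, 0.06 with the mean of probes, 0.01 under median scaling and 0.77 over all probes; Igfbp7 was 0.41 over all probes, 0.12 with the muscle covariate and 0.07 without the muscle arrays; Insr was 0.33 under housekeeping scaling, 0.04 under median scaling and 0.80 over all probes. The other Igfbp5 probes were -0.03 under cyclic loess, -0.06 with the muscle covariate and -0.36 and -0.35 without the muscle arrays. With bevacizumab, Igfbp4 was -0.07 without the muscle arrays, and its other probe -0.11 there and -0.04 with array weights. With COMBO, Igfbp4 was 0.10 under housekeeping scaling, 0.16 with the muscle covariate and 0.36 without the muscle arrays, its other probe 0.20 there, Igf1r 0.10 under housekeeping scaling and Igfbp6 0.25 with the muscle covariate. For COMBO against PLX4720, Igfbp3 was 0.78 with the mean of probes, for COMBO against bevacizumab Igfbp4 was 0.43 without the muscle arrays, and the non-additive effect of Igfbp3 was -0.09 over all probes. With each array left out, the signs turned within these ranges: Igfbp4 from -0.07 to 0.51 with bevacizumab, from -0.69 to 0.36 with COMBO and from -0.88 to 0.17 for COMBO against bevacizumab; its other probe from -0.15 to 0.58 with bevacizumab and from -0.99 to 0.20 with COMBO; Igfbp5 from -0.64 to 0.43 with PLX4720 and from -1.01 to 0.08 for COMBO against PLX4720; its other probes from -0.39 to 0.78 and from -0.35 to 0.89 with PLX4720, and one from -0.06 to 0.83 with bevacizumab; Igfbp7 from -0.72 to 0.07 with PLX4720 and from -0.76 to 0.03 for COMBO against PLX4720; and, with bevacizumab, Igf1r from -0.34 to 0.02 and Igf2r from -0.70 to 0.09. The causes were not tested.

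With 2 COMBO arrays and 3 in the other groups, changes of members with wide spread, such as Igfbp4 and Igfbp5, could not be resolved, and Igfbp2 and Igfbp6 lie near the detection limit.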
